A study of Arabidopsis thaliana with 12 samples.

Results

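Small RNA abundance in arid2/3/4 mutant seedlings of Arabidopsis was set against that in hda6 mutant seedlings, region by region and within each of 2 repeats. The members are the 500 bp regions listed in the tables of both repeats, which are 4213 regions out of 5843 in repeat 1 and 4495 in repeat 2. The series holds 12 small RNA libraries from 10-day-old seedlings grown on plates at 22 °C (16 h light, 8 h dark), 2 for each of 6 genotypes. The arid2/3/4 libraries carry the genotype arid2-/-arid3-/-arid4-/-. The hda6 libraries are hda6-/-, although the genotype of repeat 1 is spelled had-/- and the sample title was followed. Wild type (WT) is given for reference, and epcr1/2, nrpe1 and nrpd1 are the remaining genotypes. The labels used here name neither the alleles and strain of the plants nor separate sowings for the repeats, and the p-values reflect the spread between libraries, some of which may be technical.

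ARID2, ARID3 and ARID4 are ARID-domain subunits of the PEAT complexes, named for their PWWP, EPCR, ARID and TRB proteins, and HDA6 is a histone deacetylase best known for silencing transposons and ribosomal RNA genes. In plants, RNA polymerase IV (largest subunit NRPD1) starts the production of short interfering RNAs at transposons and repeats, and RNA polymerase V (largest subunit NRPE1) makes the transcripts at which these small RNAs guide DNA methylation. Transcripts of the mutated genes are not measured in these libraries. The title of the series places both kinds of mutant in the study of histone deacetylation and heterochromatin silencing, and the comparison asks where the loss of the ARID subunits and the loss of the deacetylase differ in small RNA level.

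The regions that differed fell into recognisable kinds of sequence. Satellite arrays in and near the centromeres were far higher in arid2/3/4. Sequences beside the ribosomal RNA genes, 1 dispersed repeat family, 1 stretch of related sequence on chromosome 4 and 45 of 137 mostly single-copy regions near the centromeres were higher in hda6. The examples below come from RefSeq TAIR10.1, whose nuclear chromosome lengths match the coordinates of the files, and are written 5′ to 3′.

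The first set shows the tandem unit that carried most of the excess in arid2/3/4. Unit A lies in chr3:13590501-13591000, the region with the highest mean arid2/3/4 score, at chr3:13590563-13590740 on the + strand, and the next unit follows at chr3:13590741-13590918. The other 3 units come from the largest families of such arrays, at chr4:3967252-3967429 (- strand), chr5:11824515-11824690 (+ strand) and chr4:2920676-2920856 (+ strand). Capitals mark bases that differ from unit A in the alignment. The next unit was 97.2% identical to unit A, and the other 3 were 89.9%, 86.0% and 85.4% identical over the 178 bases of unit A.
Unit A, chromosome 3: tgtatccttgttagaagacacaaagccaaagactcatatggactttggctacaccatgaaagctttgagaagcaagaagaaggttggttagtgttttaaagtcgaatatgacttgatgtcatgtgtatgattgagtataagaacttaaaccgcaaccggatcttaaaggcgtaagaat
Next unit, chromosome 3: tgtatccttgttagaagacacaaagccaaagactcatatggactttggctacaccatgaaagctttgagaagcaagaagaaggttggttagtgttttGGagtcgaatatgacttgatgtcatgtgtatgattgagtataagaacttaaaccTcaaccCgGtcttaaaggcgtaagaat
Chromosome 4, family of 44 regions: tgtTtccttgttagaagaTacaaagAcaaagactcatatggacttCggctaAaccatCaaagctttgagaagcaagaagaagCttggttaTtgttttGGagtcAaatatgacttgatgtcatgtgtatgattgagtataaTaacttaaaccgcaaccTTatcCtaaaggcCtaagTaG
Chromosome 5, family of 100 regions: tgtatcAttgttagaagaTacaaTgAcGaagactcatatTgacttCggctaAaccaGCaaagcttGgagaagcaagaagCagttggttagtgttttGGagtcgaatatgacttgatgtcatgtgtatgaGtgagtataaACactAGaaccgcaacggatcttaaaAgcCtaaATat
Chromosome 4, family of 71 regions: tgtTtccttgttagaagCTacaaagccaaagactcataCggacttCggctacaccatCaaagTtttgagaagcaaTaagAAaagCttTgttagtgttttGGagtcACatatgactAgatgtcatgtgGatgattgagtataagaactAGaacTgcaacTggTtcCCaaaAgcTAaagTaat

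The second set shows 300 bases on the + strand from the middle of 4 further regions, with the CG dinucleotides, a main site of DNA methylation, in capitals. The first pair lies beside ribosomal RNA genes and had more small RNA in hda6, at chr3:14204601-14204900 (22 CG) and chr2:1601-1900 (3 CG). The third, at chr2:2604601-2604900 in a single-copy protein-coding locus, was also higher in hda6 and holds 6 CG. The fourth, at chr5:8667101-8667400, had almost no small RNA in hda6 and holds 20 CG. The median over the middle 300 bases of all 4213 regions was 5 CG.
Chromosome 3, beside a ribosomal RNA gene: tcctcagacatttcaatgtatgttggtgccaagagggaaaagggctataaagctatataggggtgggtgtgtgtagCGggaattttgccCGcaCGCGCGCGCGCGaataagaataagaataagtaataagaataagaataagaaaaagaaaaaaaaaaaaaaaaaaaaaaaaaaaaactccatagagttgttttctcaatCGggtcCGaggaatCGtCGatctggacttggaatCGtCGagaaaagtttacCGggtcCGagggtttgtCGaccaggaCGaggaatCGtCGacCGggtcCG
Chromosome 2, beside a ribosomal RNA gene: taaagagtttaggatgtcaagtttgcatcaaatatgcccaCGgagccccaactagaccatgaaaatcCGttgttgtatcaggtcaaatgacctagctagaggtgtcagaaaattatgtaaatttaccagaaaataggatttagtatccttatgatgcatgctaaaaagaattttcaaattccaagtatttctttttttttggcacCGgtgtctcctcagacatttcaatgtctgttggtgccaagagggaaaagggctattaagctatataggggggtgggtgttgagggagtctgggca
Chromosome 2, AT2G06555: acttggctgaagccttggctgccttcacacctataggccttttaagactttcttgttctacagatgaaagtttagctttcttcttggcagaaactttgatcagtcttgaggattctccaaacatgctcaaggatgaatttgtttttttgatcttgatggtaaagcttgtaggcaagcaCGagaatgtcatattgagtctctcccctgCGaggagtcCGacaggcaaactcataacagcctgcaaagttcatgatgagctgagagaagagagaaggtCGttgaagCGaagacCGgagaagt
Chromosome 5, AT5G03925: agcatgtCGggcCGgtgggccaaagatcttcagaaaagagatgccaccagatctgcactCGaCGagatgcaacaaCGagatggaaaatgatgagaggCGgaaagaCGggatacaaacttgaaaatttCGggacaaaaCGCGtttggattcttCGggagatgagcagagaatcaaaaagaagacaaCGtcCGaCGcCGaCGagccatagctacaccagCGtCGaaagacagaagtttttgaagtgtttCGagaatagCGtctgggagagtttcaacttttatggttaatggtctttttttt

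Values are scores, which are normalized small RNA abundances per region rounded to whole numbers by the submitters. How they were scaled is not given and depth is unknown, so no counting interval is given. Over the 4213 regions the scores summed to 1698720 and 1954866 in the 2 repeats of arid2/3/4, to 1038010 and 1019940 in hda6 and to 1260502 and 1016199 in WT. The listed regions score at least 95 in every WT library, and nrpd1 scores at most 19.7% of WT in each of them, so loci that gain small RNA in a mutant from little in WT are not analysed here. Repeats of a genotype ranked the regions alike, with a Spearman correlation across regions of 0.98 in arid2/3/4 and 0.96 in hda6.

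Of the 4213 regions, 1243 (29.5%) were called higher in arid2/3/4 than in hda6 and 302 (7.17%) were called lower, by limma on log2(score + 117) with a Benjamini-Hochberg adjusted p under 0.05. A lower score in whole seedlings can mean fewer cells with these small RNAs or less per cell, which cannot be told apart. All 1545 called regions (36.7%) differed in the same direction in both repeats, which a call from the same repeats nearly fixes. Of the 2668 regions not called, 2129 also did. Both arid2/3/4 libraries scored above both hda6 libraries in 2505 regions (59.5%) and below both in 770 (18.3%). Without repeat 1 of hda6, repeat 2 of hda6 or repeat 2 of arid2/3/4, the higher calls numbered 668, 682 and 680. Without repeat 1 of arid2/3/4, repeat 1 of hda6 or repeat 2 of hda6, the lower calls numbered 60, 87 and 59. Each of these fits left 1 sample in an arm, which is taken to vary like the other genotypes.

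The split between the directions depended on the scaling of the libraries. The median difference over all regions, arid2/3/4 minus hda6, was 0.16 on the log2(score + 117) scale in repeat 1 and 0.28 in repeat 2, and 0.23 in the fit. Scaling every library to a common median moved it by -0.26 to -0.03, with 998 regions called higher and 1289 lower, and quantile normalization moved it by -0.27 to -0.04, with 759 higher and 1085 lower. Higher regions were 80.5% of calls as deposited and 43.6% and 41.2% under the 2 scalings. Groups of regions are therefore read against the median of all regions, and shares within a library, which no scaling of that library alters, are given where they bear on a group. A share is part of a whole, so a large group that rises lowers the shares of all others.

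Both repeats ordered the regions alike, with a Pearson correlation of 0.98 between the differences of repeat 1 and repeat 2 across regions, and 0.94 in the 3343 regions that have neither of the tandem spacings described next. Regions are not independent replicates, and copies of a repeat share reads.

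**Figure D1:**
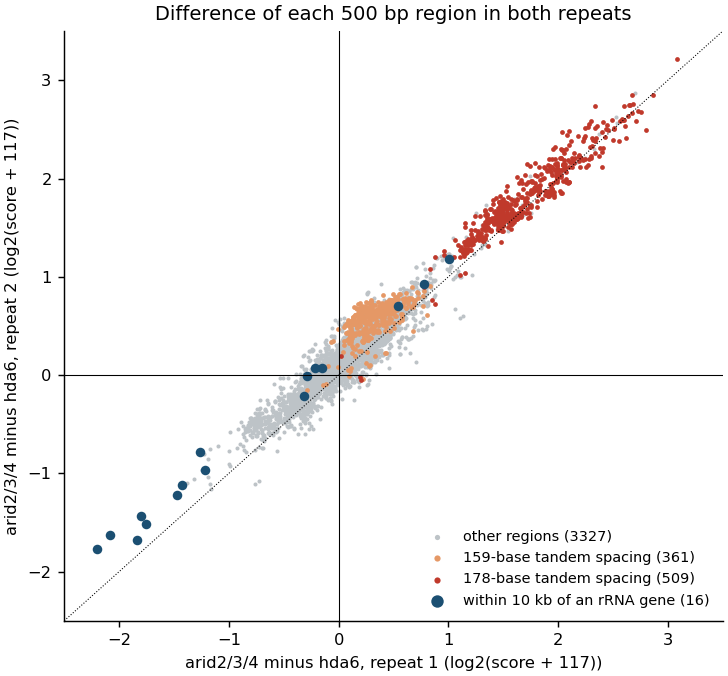
Difference arid2/3/4 minus hda6 of each of the 4213 regions on the log2(score + 117) scale, in repeat 1 (x axis) and repeat 2 (y axis); the dotted line marks equal values. Regions of 178-base spacing make up most of the upper right and 9 of the 16 regions near ribosomal RNA genes the lower left.

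The centromeric satellite was the group with the highest excess in arid2/3/4 among the groups of regions described here. Arabidopsis centromeres are built of tandem copies of a satellite of about the length of unit A. A region was placed in this group when its identity with the sequence 176 to 181 bases on was at least 40% and at least 5 points above that at neighbouring distances, a definition from sequence alone but set after the scores had been seen. It held 509 regions in 178 families of shared sequence, and 506 of them were called higher in arid2/3/4 and 0 lower, against 29.5% and 7.17% of all regions. The median score was 638 and 799 in the 2 repeats of arid2/3/4, 138 and 175 in hda6, and 241 and 236 in WT. The arid2/3/4 libraries thus stood above WT and the hda6 libraries below it. The median difference arid2/3/4 minus hda6 was 1.64 on the log2(score + 117) scale. It was 1.33 with a common median and 1.08 with quantile normalization, with 506 and 498 regions called higher and 0 lower. Leaving out any 1 of the 10 libraries in the fit gave 505 or 506 higher calls. The fitted medians against WT, which share the WT libraries, were 1.36 for arid2/3/4 and -0.43 for hda6. Over all regions they were -0.007 and -0.29, so hda6 lay below WT in most kinds of region as deposited.

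The satellite made up 39.4% and 42.3% of the summed score in arid2/3/4, 12.6% and 15.4% in hda6, and 18.3% and 22.5% in WT. Its share was thus 3.12 and 2.75 times as large in arid2/3/4 as in hda6. By chromosome the median difference was 1.58 over 25 regions of chromosome 1, 2.05 over 44 of chromosome 2, 2.19 over 12 of chromosome 3, 1.62 over 180 of chromosome 4 and 1.63 over 248 of chromosome 5. Not all of the group lay at the set centromere positions. The family of 71 regions on chromosome 4 had a median distance of 1.06 Mb. The 3 satellite-spaced regions that were not called all lay on chromosome arms, on chromosomes 1 and 2.

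Regions in the core of the arrays reached the largest differences. At chr5:11729501-11730000, an unannotated region 29.8 kb from the set centromere position, the scores were 2910 and 3628 in arid2/3/4, 240 and 286 in hda6, and 592 and 509 in WT. Of these libraries, those of hda6 were the lowest, and those of arid2/3/4 were 12.1 and 12.7 times as high within a repeat. The fitted difference was 3.15 ± 0.25 (SE, limma adjusted p = 1.6e-32). At chr1:15083501-15084000, in a coding exon annotated to AT1G40104, arid2/3/4 scored 4420 and 5569, hda6 507 and 673, and WT 1128 and 1130, with a fitted difference of 2.85 ± 0.29. The highest arid2/3/4 scores of any tested region were at chr3:13590501-13591000, which holds unit A. There arid2/3/4 scored 7355 and 9036, hda6 1111 and 1255, and WT 2216 and 2045, a difference of 2.67 ± 0.32 (adjusted p = 1.8e-15). The order arid2/3/4 above WT above hda6 held in both repeats in each. These 3 regions belong to the same family of 75 regions, so they share reads and are not separate cases.

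Among regions over genes and pseudogenes, those picked for the highest differences also lay in or beside the arrays. At chr4:3950501-3951000, a further region of that family, which overlaps the pseudogene AT4G06700, arid2/3/4 scored 5594 and 6142 and hda6 1060 and 951 (difference 2.41 ± 0.30). At chr2:3614501-3615000, in a coding exon annotated to AT2G07981, arid2/3/4 scored 1555 and 1904 and hda6 205 and 251 (2.42 ± 0.24). Only 455 of its bases are called in the reference, and it lies within a run of satellite regions without showing the spacing itself. At chr5:11701501-11702000, over the pseudogene AT5G31770, arid2/3/4 scored 2662 and 2965 and hda6 446 and 547 (2.26 ± 0.27). This selection fixed their direction. In each, the lowest arid2/3/4 score exceeded the highest hda6 score, as in 59.5% of all regions.

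Higher regions also formed the longest unbroken stretches. They fell into 698 runs of adjacent regions, of which 39 held at least 4 regions and 432 regions in all. The longest ran over 45 regions at chr4:3965501-3988000, 44 of them of 178-base spacing, with median scores of 1556 and 2121 in arid2/3/4, 313 and 428 in hda6, and 572 and 667 in WT. Lower regions fell into 234 runs, of which 180 were single regions, 4 held at least 4 regions and the longest held 6.

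A second tandem array, with a spacing of 159 bases and 341 of its 361 regions on chromosome 1, differed far less. Its median scores were 225 and 255 in arid2/3/4, 161 and 133 in hda6, and 233 and 205 in WT. The arid2/3/4 medians thus lay close to WT and the hda6 medians below both. The fitted hda6 minus WT median was -0.36, near the -0.29 of all regions. Here 188 regions were called higher and 0 lower, with a median difference of 0.45, or 0.18 under both other scalings, where 146 and 108 were higher and 5 and 1 lower. Without repeat 1 of hda6, repeat 2 of arid2/3/4 or repeat 2 of hda6, 8, 13 and 24 were called higher. The array held 5.08% and 4.98% of the summed score in arid2/3/4 and 5.80% and 4.98% in hda6. The 178-base group held 39.4% and 42.3% in arid2/3/4 against 12.6% and 15.4% in hda6, which lowers every other share in arid2/3/4. Whether the share of the 159-base array separates the genotypes apart from the satellite was not tested.

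**Figure D2:**
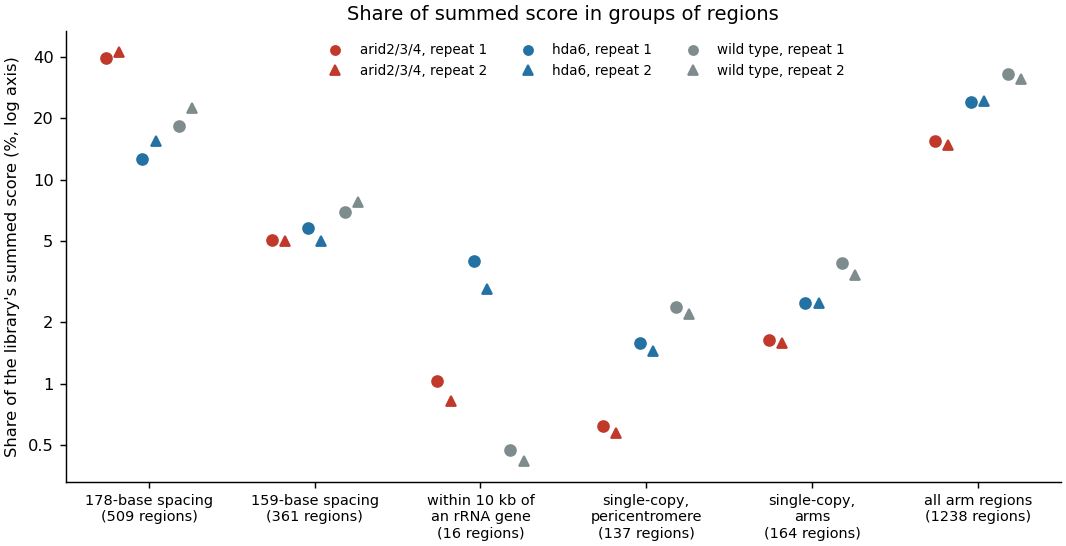
Share of each library's summed score over the 4213 regions (%, log axis) held by 6 groups of regions; each point is a library (circle, repeat 1; triangle, repeat 2). The 178-base group holds 39.4% and 42.3% in arid2/3/4 against 12.6% and 15.4% in hda6, and the group near ribosomal RNA genes 1.03% and 0.82% against 3.97% and 2.92%.

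Regions beside the ribosomal RNA genes showed the opposite order. HDA6 is known as a silencer of these gene repeats. No tested region overlapped an annotated ribosomal or transfer RNA gene, and 16 lay within 10 kb of the 4 annotated ribosomal RNA genes AT2G01010, AT2G01020, AT3G41768 and AT3G41979. Of these, 9 were called lower in arid2/3/4 than in hda6 and 3 higher, with a median difference of -1.06. The median score was 993 and 934 in arid2/3/4, 2395 and 1773 in hda6, and 390 and 254 in WT. Both mutants stood above WT and hda6 stood highest. The 16 regions held 1.03% and 0.82% of the summed score in arid2/3/4, 3.97% and 2.92% in hda6, and 0.47% and 0.42% in WT, a share 3.86 and 3.55 times as large in hda6 as in arid2/3/4. Between 8 and 9 regions were called lower whichever library was left out, and 13 and 14 were lower with a common median and with quantile normalization.

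At chr3:14204501-14205000, whose middle is shown above, arid2/3/4 scored 702 and 649, hda6 3654 and 2490, and WT 410 and 278. The difference of -1.99 ± 0.24 (SE, limma adjusted p = 7.8e-15) was the most negative among the called regions. At chr2:1501-2000, in a coding exon annotated to AT2G01008 at the end of chromosome 2, arid2/3/4 scored 1643 and 1212, hda6 6186 and 4136, and WT 375 and 391 (difference -1.76 ± 0.26). Its counterpart at chr3:14195501-14196000, over AT3G41762 and the non-coding RNA AT3G41761, was 99.4% identical when shifted by 33 bases. It gave 1824 and 1454 in arid2/3/4, 6444 and 4389 in hda6, and 550 and 497 in WT (-1.64 ± 0.27). The 2 copies cannot be counted as independent, since reads from 1 may map to the other.

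The differences changed over short distances there. At chr2:2001-2500, the next region along AT2G01008, arid2/3/4 scored 1528 and 1431, hda6 1888 and 1436, and WT 461 and 242, with no call (difference -0.15 ± 0.25). At chr3:14206001-14206500, 1.5 kb past the most negative region, arid2/3/4 scored 1541 and 1660, hda6 707 and 667, and WT 355 and 262, and the region was called higher in arid2/3/4 (1.09 ± 0.22), a direction that quantile normalization turns (-0.40). Within the same flank, small RNA was thus highest in hda6 at some regions and highest in arid2/3/4 at others as deposited.

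**Figure D3:**
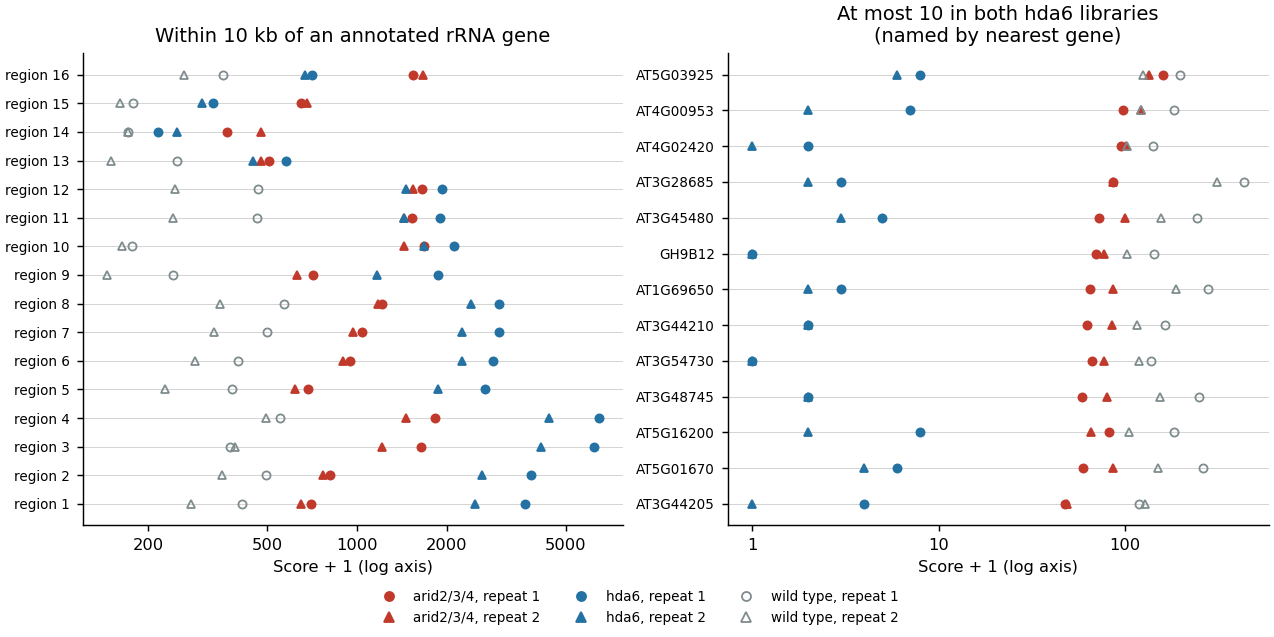
Score + 1 in each library (log axis) for the 16 regions within 10 kb of an annotated ribosomal RNA gene (left, ordered by difference) and for the 13 regions scoring at most 10 in both hda6 libraries only (right, named by their nearest gene); circles are repeat 1, triangles repeat 2. On the left 9 regions are called lower in arid2/3/4; on the right all arid2/3/4 scores lie between 47 and 159.

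Families of dispersed and tandem repeats varied in how many of their regions were called. Regions that share at least 50% of their 24-base words with another were joined into families, and 30 families had at least 10 regions, 967 in all. In 6 of these every region was called higher, in 11 some were higher, in 2 some were lower, and in 11 none was called. No family held both directions, but regions of a family share sequence and may share reads, so they are not independent. The 4 largest medians belonged to satellite families. The family with unit A, with 75 regions on all 5 chromosomes, had a median difference of 2.38 and median scores of 3861 and 4549 in arid2/3/4, 669 and 768 in hda6, and 1180 and 1114 in WT. The families of 44 regions on chromosome 4, 100 on chromosome 5 and 71 on chromosome 4 had medians of 2.03, 1.61 and 1.41.

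Families outside the satellite were also higher in arid2/3/4, at smaller differences. The family of 11 regions on chromosomes 1 and 5 had median scores of 524 and 448 in arid2/3/4, 259 and 216 in hda6, and 164 and 117 in WT, with all 11 called higher (median 0.72). The family of 13 regions on all 5 chromosomes had 676 and 682 in arid2/3/4, 443 and 370 in hda6, and 213 and 127 in WT, with all 13 higher (0.59). These medians shrank to 0.39 and 0.24 with a common median and to 0.28 and 0.04 with quantile normalization. In these families both mutants were above WT, whereas hda6 lay below WT in the satellite families. The fitted hda6 minus WT medians of the satellite families of 75, 44, 100 and 71 regions were -0.62, -0.69, -0.20 and -0.32. Over all regions this median was -0.29, so hda6 below WT is not particular to the satellite.

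The lower families were higher in hda6 on different backgrounds. A family of 17 regions spread over all 5 chromosomes had median scores of 382 and 431 in arid2/3/4, 734 and 617 in hda6, and 532 and 391 in WT, and 15 of its regions were called lower (median -0.58). A family of 40 regions in a single stretch at chr4:1699501-1738500 had 75 and 88 in arid2/3/4, 163 and 155 in hda6, and 304 and 186 in WT, and 22 of its regions were called lower (-0.42). Among arid2/3/4, hda6 and WT, hda6 was highest in the first family and WT in the second. Both medians stayed negative with a common median (-0.93 and -0.59) and with quantile normalization (-1.59 and -0.47).

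**Figure D4:**
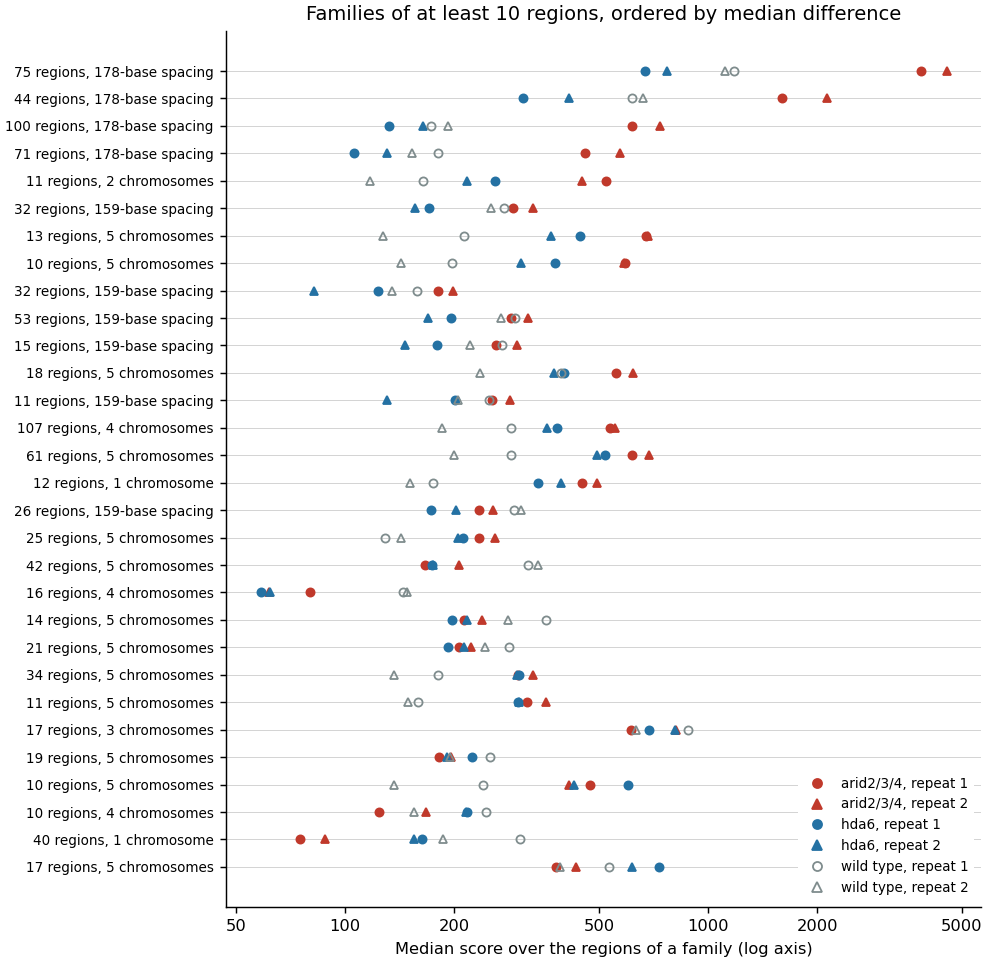
Median score over the regions of each of the 30 families of at least 10 regions (log axis), ordered by their median difference arid2/3/4 minus hda6; filled points are arid2/3/4 and hda6, open points WT, circles repeat 1 and triangles repeat 2. The top 4 are satellite families, with medians of 1.41 to 2.38, and the lowest 2 have medians of -0.42 and -0.58.

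Distance from the centromere ordered the differences. In the 2975 regions within 3 Mb of the set centromere position (the pericentromere), 1121 were called higher and 263 lower, with a median of 0.32. In the 1238 arm regions 122 were higher and 39 lower, with a median of 0.08. Relative to the median of all regions the pericentromere stood 0.09 above and the arms 0.15 below. With a common median the counts were 952 and 843 (median 0.03) against 46 and 446 (-0.13), and with quantile normalization 715 and 794 (-0.01) against 44 and 291 (-0.07), so the direction of these medians depends on scaling while their order does not. Without repeat 1 of hda6, repeat 2 of arid2/3/4 or repeat 2 of hda6 the higher calls were 629, 641 and 651 in the pericentromere and 39, 39 and 31 on the arms. Without either nrpe1 library 240 arm regions were higher, and 73 or 72 were lower.

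The share held by the pericentromere does not depend on the scaling of a library. Its summed score was 5.50 and 5.74 times that of the arms in arid2/3/4, 3.16 and 3.13 times in hda6, and 2.03 and 2.22 times in WT. The log2 of this ratio was 2.49 ± 0.04 (SD, n = 2) in arid2/3/4 and 1.65 ± 0.01 (SD, n = 2) in hda6. The arid2/3/4 libraries were both higher. The difference of 0.84 had an exact two-sided permutation p of 0.333, the smallest that 2 against 2 samples can give. In the mostly single-copy regions the ratio went the other way, with a difference of -0.72. In arid2/3/4, the 2112 pericentromeric regions with neither tandem spacing held 0.70 and 0.68 times their share in hda6. The 1231 such arm regions held 0.64 and 0.61 times theirs, a similar drop. Most of the difference of 0.84 thus came from regions of tandem spacing, and the ratio without them was not tested.

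The gradient was steepest next to the centromere. Within 0.25 Mb, 565 of 824 regions were called higher and 10 lower (median 0.68), and median scores were 511 and 567 in arid2/3/4 against 223 and 226 in hda6 and 226 and 200 in WT. From 0.25 to 0.5 Mb the median difference was 0.43, from 0.5 to 1 Mb 0.28, and from 1 to 2 Mb 0.12. With a common median these 4 values were 0.39, 0.13, -0.02 and -0.15, in the same descending order. From 2 to 3 Mb the order turned, with 21 of 517 regions higher and 94 lower, a median of -0.06, and median scores of 137 and 152 in arid2/3/4, 166 and 167 in hda6, and 228 and 172 in WT. This median was also negative with a common median (-0.29) and with quantile normalization (-0.24). Beyond 3 Mb the medians were 0.06 and 0.10 (-0.15 and -0.11 with a common median), and the median scores of both mutants lay below those of WT.

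Regions with neither tandem spacing showed a smaller gradient, whose order out to 3 Mb did not depend on the scaling. This class is not free of satellite, since some of its regions lie within the arrays, such as chr2:3614501-3615000 above. In the 297 regions of other spacing within 0.25 Mb, 129 were higher and 10 lower, with a median of 0.41, and median scores were 417 and 457 in arid2/3/4, 298 and 278 in hda6, and 192 and 148 in WT. The median there was 0.09 with a common median and -0.01 with quantile normalization. From 1 to 2 Mb, 95 of 647 regions of other spacing were higher and 105 lower (median 0.04). Under each scaling the medians fell from bin to bin out to 2 to 3 Mb. They were -0.06 there as deposited, -0.29 with a common median and -0.24 with quantile normalization. Over all 3343 regions of other spacing 549 were higher and 302 lower, with a median of 0.12, and every lower call was in this class. The split turned under both other scalings, with 346 higher and 1284 lower with a common median (median -0.12) and 153 higher and 1084 lower with quantile normalization (-0.11).

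**Figure D5:**
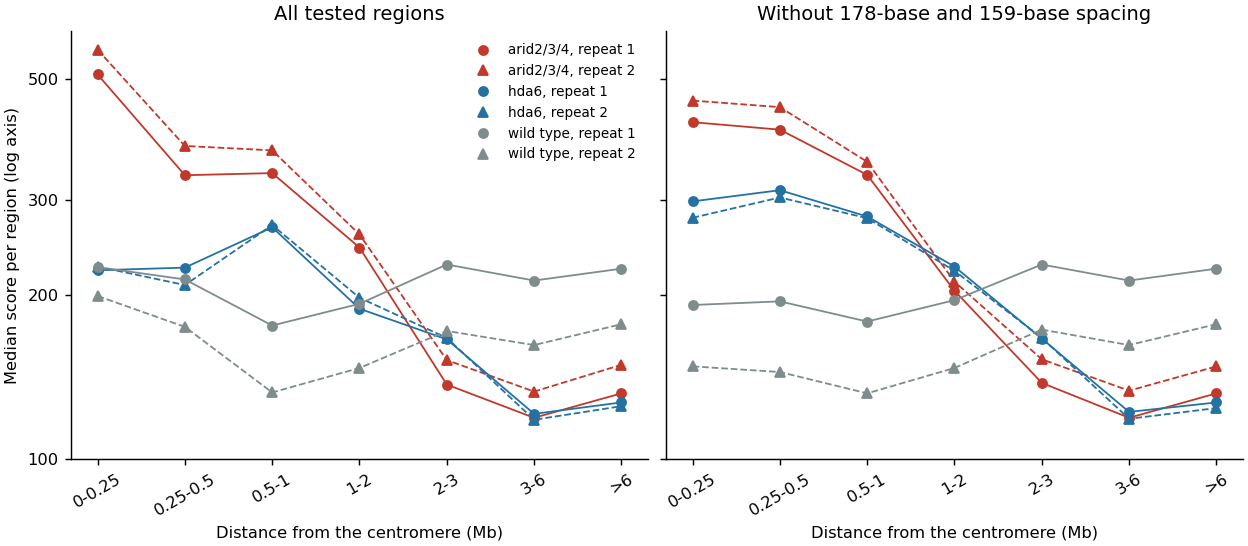
Median score per region (log axis) by distance from the set centromere position in Mb, for all 4213 regions (left) and for the 3343 regions without 178-base or 159-base spacing (right); solid lines are repeat 1 and dashed lines repeat 2. The arid2/3/4 medians fall from 511 and 567 next to the centromere to 137 and 152 at 2 to 3 Mb, where they pass below those of hda6.

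Mostly single-copy regions, where at least 80% of the 24-base words occur once in the genome, had a median difference below that of all regions. Of 301 such regions, 33 were called higher and 55 lower, with a median of -0.02. The 137 in the pericentromere had 6 higher and 45 lower (median -0.21) and median scores of 55 and 62 in arid2/3/4, 92 and 79 in hda6, and 185 and 139 in WT. They were lowest in arid2/3/4 in both repeats, and held 0.62% and 0.57% of its summed score against 1.59% and 1.45% in hda6 and 2.37% and 2.20% in WT. The median stayed negative with a common median (-0.34) and with quantile normalization (-0.20). The 164 on the arms had 27 higher and 10 lower (median 0.08, or -0.12 and -0.04 under the other scalings), with median scores of 106 and 114 in arid2/3/4, 110 and 96.5 in hda6, and 214 and 142 in WT.

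Most regions in the longest run of lower calls were mostly single-copy by this measure. It covered 6 adjacent regions at chr2:2604001-2607000, across the coding exon and upstream sequence of the protein-coding gene AT2G06555. At chr2:2604501-2605000, shown above, arid2/3/4 scored 290 and 327, hda6 998 and 919, and WT 902 and 637, with a difference of -1.34 ± 0.24 (limma adjusted p = 3.4e-07). At chr2:2606001-2606500, 1074 bp from the gene, arid2/3/4 scored 155 and 135, hda6 592 and 423, and WT 598 and 473 (-1.24 ± 0.22). At both, which were picked for low differences, the arid2/3/4 libraries scored below every hda6 and WT library.

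Lower scores in arid2/3/4 were also found at other loci. At chr2:4964501-4965000, in a run of 4 lower regions and 283 bp from the non-coding RNA AT2G05685, arid2/3/4 scored 70 and 72, hda6 349 and 277, and WT 345 and 256 (-1.19 ± 0.20). At chr4:3529001-3529500, over the pseudogene AT4G06571, arid2/3/4 scored 67 and 58, hda6 296 and 274, and WT 199 and 115 (-1.16 ± 0.15). On an arm, at chr3:873001-873500 over the non-coding RNA AT3G01295, arid2/3/4 scored 21 and 30, hda6 105 and 129, and WT 195 and 122 (-0.71 ± 0.11). All were picked for the lowest differences of their lists, which fixed their direction. In all of them the highest arid2/3/4 score was below the lowest hda6 score, as in 18.3% of all regions.

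The reverse pattern, small RNA present in arid2/3/4 and nearly lost in hda6, was found at 13 regions that scored at most 10 in both hda6 libraries and above that in arid2/3/4. Their selection fixes the direction, and all 13 were among the 29.5% called higher. On chromosome arms lay 9 of them, and 3 were mostly single-copy by the measure above. Their scores reached at most 7 in hda6 and ranged from 47 to 159 in arid2/3/4, from 102 to 436 in WT, from 32 to 168 in epcr1/2 and from 0 to 24 in nrpe1. In 11 of them arid2/3/4 was below WT in both repeats. Listed regions score at least 95 in WT with no such floor in the mutants, which favours that order at low scores. These low scores put the fitted differences, 0.47 to 1.10, under the ratio of the scores, because 117 is added to each.

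At chr5:8667001-8667500, over the long non-coding RNA AT5G03925, arid2/3/4 scored 159 and 134, hda6 7 and 5, and WT 198 and 125 (difference 1.10 ± 0.11, adjusted p = 7.6e-21). At chr2:18396001-18396500, in a coding exon of GH9B12, a glycosyl hydrolase gene, arid2/3/4 scored 69 and 76, both hda6 libraries were listed at 0, and WT scored 142 and 102. At chr3:10753001-10753500, 498 bp from the transfer RNA gene AT3G28685, arid2/3/4 scored 85 and 85, hda6 2 and 1, and WT 436 and 313. The arid2/3/4 level thus ranged from that of WT to well below it while hda6 stayed near 0.

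A single region had the opposite extreme, and another was low in both mutants. At chr4:3655501-3656000, in the pseudogene AT4G06597, both arid2/3/4 libraries were listed at 0, while hda6 scored 81 and 81 and WT 185 and 101. This sequence is a 3-base repeat, 99.2% identical to itself 3 bases on. The epcr1/2 libraries scored 183 and 0 there, so a score of 0 in 1 library of a genotype need not recur in its other repeat. At chr5:486501-487000, 28 bp from MYB3R-5, a MYB transcription factor gene, arid2/3/4 scored 2 and 2, hda6 1 and 0, and WT 220 and 151. Both mutants had lost nearly all small RNA at that region.

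The annotation classes differed less than the sequence classes. Of 647 regions over annotated pseudogenes, 179 were higher and 59 lower (median 0.24), close to the median of all regions. Gene bodies had 105 of 341 higher and 29 lower (0.19), regions up to 1 kb upstream of protein-coding genes 51 of 508 higher and 22 lower (0.08), and the remaining regions 908 of 2717 higher and 192 lower (0.27). Of all regions 29.5% were higher and 7.17% lower. The other scalings turned the split in every class, except the remaining regions with a common median. With a common median 126 pseudogene regions were higher and 235 lower, and 22 upstream regions were higher and 192 lower. With quantile normalization the counts were 49 and 249 for pseudogenes and 19 and 104 upstream. Under the same scalings, in that order, gene bodies had 77 higher and 111 lower and 62 and 70, and the remaining regions 773 and 751 and 629 and 662. Against WT, with shared WT libraries, the pseudogene medians were 0.77 in arid2/3/4 and 0.52 in hda6, and the upstream medians were -0.31 and -0.42. Among 4 regions within 2 kb of established targets of RNA-directed DNA methylation, at the Polycomb gene MEA (AT1G02580) and the pseudogene AT4G08680, 0 were called by limma in either direction, 0 had an unadjusted p under 0.05, and the median difference was 0.02. Under each of the other scalings 1 of the 4 was called lower.

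Of 19 regions over annotated MIRNA genes, 3 were higher and 1 lower (median 0.01), against 29.5% and 7.17% of all regions. With a common median 11 were lower (median -0.26) and with quantile normalization 6 (-0.22), with 3 higher under both. MIR5643a and MIR5643b are annotated inside satellite arrays, and their regions scored 517 and 771 and 653 and 786 in arid2/3/4 against 86 and 112 and 118 and 171 in hda6. The region of MIR854b, which also overlaps the pseudogene AT5G29975, scored 1282 and 897 in arid2/3/4, 364 and 251 in hda6, and 214 and 115 in WT (1.50 ± 0.21). The region of MIR5645e scored 86 and 107, 162 and 178, and 209 and 143 in that order (-0.43 ± 0.14). Scores count all small RNA of a region, so they are not levels of the mature miRNAs.

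The difference was also set beside the dependence on RNA polymerase V. The nrpe1 and WT libraries do not enter the difference arid2/3/4 minus hda6, but they share the estimate of spread behind its calls, which numbered 1694 or 1698 higher without an nrpe1 library. Regions were ranked by nrpe1 minus WT into 3 groups. In the 1405 regions most reduced in nrpe1, 110 were higher and 93 lower (median 0.07), and in the 1405 least reduced or raised, 798 were higher and 33 lower (0.50). With a common median the most reduced group had 45 higher and 577 lower (median -0.15) and the least reduced group 691 and 124 (0.21). With quantile normalization the counts were 36 and 398 (-0.10) and 530 and 202 (0.14). The most reduced group thus turned to mostly lower calls, while its median stayed below that of the least reduced group. Across the 4213 regions the Spearman correlation of arid2/3/4 minus hda6 with nrpe1 minus WT was 0.53, and it was 0.28 over the 3343 regions of other spacing. It is given as a description, since neighbouring regions and copies share reads.

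Some of the most abundant regions were not called as deposited. At chr3:7922001-7922500, 2294 bp from the gene TIC, a circadian clock regulator, arid2/3/4 scored 7007 and 8286, hda6 6026 and 6654, and WT 11904 and 7428. The difference was 0.26 with a 95% interval of -0.41 to 0.93, and -0.16 under both other scalings. This region was called higher in a fit of arid2/3/4 and hda6 alone (limma adjusted p = 0.035) and without an nrpe1 library (0.039). At chr3:10008501-10009000, 327 bp from AT3G27140, arid2/3/4 scored 2860 and 2645, hda6 2477 and 2478, and WT 3654 and 2752. The difference was 0.14 with an interval of -0.46 to 0.75, and -0.27 with a common median. With quantile normalization it was -1.15 and called lower (limma adjusted p = 8.8e-05). The intervals as deposited leave room for a difference in either direction.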

How the data were processed

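Small RNA libraries of total RNA from whole seedlings were grouped by genotype and repeat from their titles. Per the submitters' processing notes, the authors used Bowtie 0.12.2 and TAIR10. The deposited tables, 1 per repeat, hold a score per genotype and 500 bp region, a normalized abundance rounded to whole numbers with no account of scaling, read sizes or reads with several matches in the sources used here. Coordinates, 0-based in the files, are printed 1-based. Genes and sequence came from RefSeq TAIR10.1.

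The fit used limma 3.58.1 in R 4.3.3 with a trended prior on log2(score + 117), 117 being the 25th percentile of scores above 0, in 10 libraries (nrpd1 left out), with the repeat as a block because each repeat has its own table. It had 4 residual degrees of freedom and an infinite prior, so small p-values rest on the trend of spread with score. Adjustment was by Benjamini-Hochberg over 4213 regions. The fit was tested on data drawn from its own fitted means and spread with independent noise, where 200 of 4213 regions differed. It found 48% of log2 differences of 0.5 and 91% of those of 1, and 1.42% of calls were false. Real regions share reads and libraries can deviate together, so these figures do not give the share of false calls here. With 2 samples per genotype the deviations of same-numbered arid2/3/4 and hda6 libraries correlated at 0.65.

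Regions named in the text were taken by rule: the 8 highest and 8 lowest differences, the 3 highest and lowest on arms and in the pericentromere, and the 2 highest and lowest per annotation class, with at most 1 per family within each of these lists, and then the 2 highest scores per genotype and the 3 closest values among abundant regions, with no limit per family. This gave 33 regions, some of the same family. The regions near ribosomal RNA genes, in MIRNA genes, in runs and with scores up to 10 were named as lists. The comparison, its lists and the tandem spacing classes were chosen with earlier results of these data known. Alternatives were other scalings, pseudocounts, filters, libraries in the fit, no block, a 2-fold minimum, single-copy regions and leaving out each library.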

Additional observations from a re-analysis of the deposited data

How the results depend on the processing

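The higher and lower calls, 1243 and 302 as reported, moved by more than 1.5 times under these alternatives. Quantile normalization gave 759 higher and 1085 lower, and a common median 1289 lower. A fit of arid2/3/4 and hda6 alone gave 2237 and 557, and a 2-fold minimum 398 and 4. The 301 mostly single-copy regions fitted alone gave 27 and 50, against 33 and 55 for the same regions in the main fit. Leaving out 1 library gave 668 to 1698 higher and 59 to 422 lower. With no replicate block 1208 were higher and 286 lower. The within-repeat median over all regions, 0.22 on average, was -0.027 with a common median, -0.036 with quantile normalization, 0.34 and 0.37 with pseudocounts 10 times smaller and of 1, 0.31 without the lowest-scoring regions, -0.019 in single-copy regions, and 0.16 to 0.28 by repeat. The difference of 0.84 in the log2 ratio of pericentromere to arms was 1.03 and 0.69 with the pericentromere set at 2 and 5 Mb, 0.77 over each repeat's own table, -0.72 in single-copy regions and 0.80 to 0.87 by repeat. Among 695 alternative values of the 33 named regions, 13 fell short of the threshold, all under the 2-fold minimum, and 6 turned sign, all in the 3 closest abundant regions. Another 6 newly passed the threshold, all higher, at chr3:7922001-7922500 and chr3:7921501-7922000 in the fit of arid2/3/4 and hda6 alone (limma adjusted p = 0.035 and 0.016) or without an nrpe1 library (0.039 and 0.047). The values that turned sign were at chr3:7922001-7922500 (-0.16 with a common median and -0.16 with quantile normalization), chr3:10008501-10009000 (-0.27 and -1.15) and chr3:7921501-7922000 (-0.14 and -0.70). With quantile normalization chr3:10008501-10009000 and chr3:7921501-7922000 were also called lower (limma adjusted p = 8.8e-05 and 0.0021). The region chr3:7921501-7922000 was thus called higher or lower depending on the setting. The causes of these changes were not tested. Unknown depth, shared reads between copies and 2 samples per genotype limit all values.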

Other observations

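At the runs of lower regions epcr1/2, which lacks other subunits of the PEAT complexes, did not share the low scores of arid2/3/4. At chr2:4964501-4965000 epcr1/2 scored 901 and 978, against 70 and 72 in arid2/3/4, 349 and 277 in hda6 and 345 and 256 in WT. At chr3:15633501-15634000, in a run over the pseudogene AT3G43730, epcr1/2 scored 1072 and 1015, arid2/3/4 90 and 102, hda6 293 and 210, and WT 518 and 350. The differences from epcr1/2 were not tested.

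Regions listed in the table of 1 repeat alone could be compared within that repeat only. In the 1630 regions of repeat 1 alone the median difference arid2/3/4 minus hda6 was 0.08 on the log2(score + 117) scale, and arid2/3/4 scored above hda6 in 982. In the 282 of repeat 2 alone it was 0.22, with arid2/3/4 above in 247.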
